A study of Homo sapiens with 6 samples.

Results

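HIRA, UBN1, CABIN1, ASF1A and ASF1B, which deposit histone H3, and KDM5A, KDM5B, EZH2, SUZ12 and KDM6B, which write or erase methyl marks on it, were followed on 6 arrays of IMR90 ER:Ras cells. Members were all probe sets that the platform annotation assigns to 1 of these 10 genes alone, which gave 28 of 54613 probe sets and 10 of the 19775 genes so named. One further probe set names SUZ12 together with its pseudogene SUZ12P1 and was kept apart. Of the 28, 22 exceeded the median of their array on 2 or more of the 6 arrays and were tested, and the other 6 are shown by their signals only. IMR90 are normal human lung fibroblasts with a finite life span, and ER:Ras is an oncogenic HRAS fused to the estrogen receptor, which 4-OHT (4-hydroxytamoxifen) switches on. All cells carried the fusion. RB-KD OIS cells (oncogene-induced senescence) received 100 nM 4-OHT for 6 days and siRNAs against RB1, the retinoblastoma gene, 4 days before RNA was taken, that is, 2 days after 4-OHT was added. Ctrl-KD OIS cells received the same with control siRNA, and growing cells received neither 4-OHT nor siRNA, so the effects of 4-OHT and of transfection cannot be told apart in comparisons with growing cells. RB depletion thus began after the oncogene was switched on, and knockdown lowers RB1 mRNA without deleting the gene. Each state had 2 arrays, which the methods give as independent experiments.

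Nucleosomes are built by chaperones that carry H3 and H4. During DNA replication CAF-1 receives H3-H4 from ASF1, whereas the HIRA complex (HIRA, UBN1, CABIN1) places the variant H3.3 independently of replication, and HIRA with ASF1A is known for building senescence-associated heterochromatin foci in human fibroblasts. KDM5 enzymes remove methyl groups from lysine 4 of H3 (H3K4), a mark of active promoters, and KDM5A was first isolated as an RB-binding protein. EZH2 writes the repressive methyl mark on lysine 27 (H3K27) within Polycomb repressive complex 2 (PRC2), of which SUZ12 is a core subunit, and KDM6B (JMJD3) erases it. In fibroblasts, loss of PRC2 and action of KDM6B at the INK4A locus are known to release the cell cycle inhibitor p16, and EZH2 is a known target of E2F factors, which RB restrains.

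RB1 gave signals of 221.7 and 228.5 in RB-KD OIS cells, 2578.2 and 1914.5 in Ctrl-KD OIS cells, and 2627.2 and 2528.4 in growing cells, as labelled. HRAS mRNA, which was present before 4-OHT, checks nothing about induction. It gave 19981.4 and 18684.7 in RB-KD OIS cells, 22631.1 and 27035.6 in Ctrl-KD OIS cells, and 24228.9 and 22653.9 in growing cells. In RB-KD OIS it was called lower than in Ctrl-KD OIS cells (log2 -0.36), and 8 of 16 alternative fits kept that call. All 10 fibroblast markers lay above the array median on every array, with sums of 183225.5 to 219833.2 in RB-KD OIS cells, 161397.6 to 163489.3 in Ctrl-KD OIS cells and 249825.9 to 250344.8 in growing cells. Over growing cells, 1 was called higher and 7 lower in Ctrl-KD OIS cells (median -1.39), and 1 higher and 4 lower in RB-KD OIS cells (median -0.29). Of all genes, 19.9% were higher and 20.7% lower in the former, and 18.0% and 18.4% in the latter. DCN had the largest decrease in Ctrl-KD OIS cells (-2.70). Summed signals of epithelial (67.3 to 248.4 over 5 genes), endothelial (201.3 to 341.9 over 5) and leukocyte markers (123.8 to 230.4 over 4) were low. Yet PECAM1 lay above the array median on all 6 arrays (98.1 to 164.9). EPCAM did so on 5, CD3E on 4, ITGAM and VWF on 3 each. No array exceeded it for 3 epithelial, 2 endothelial and 1 leukocyte marker. In bulk RNA, fewer cells of a kind and less RNA per cell cannot be told apart. Signals below are linear MAS5 values per array, changes are log2 ratios, and "called" means an adjusted p under 0.05 in limma over 30139 probe sets. The prior variance in that fit followed the signal level, which is named the variance trend where it was dropped.

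EZH2 and ASF1B carried the largest changes between the states among the tested members, apart from a weak KDM5A probe set that was not called. Between the OIS states, with changes always given as RB-KD over Ctrl-KD, EZH2 was 8.42-fold and ASF1B 6.45-fold higher, and SUZ12 was 1.55-fold higher. In Ctrl-KD OIS over growing cells, EZH2 was 3.22-fold and ASF1B 3.85-fold lower, SUZ12 differed by 0.01 on the log2 scale, and KDM5B, KDM6B and UBN1 were each higher on 1 probe set. HIRA was called in none of the 3 comparisons by limma (unadjusted p at or above 0.269).

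**Figure D1:**
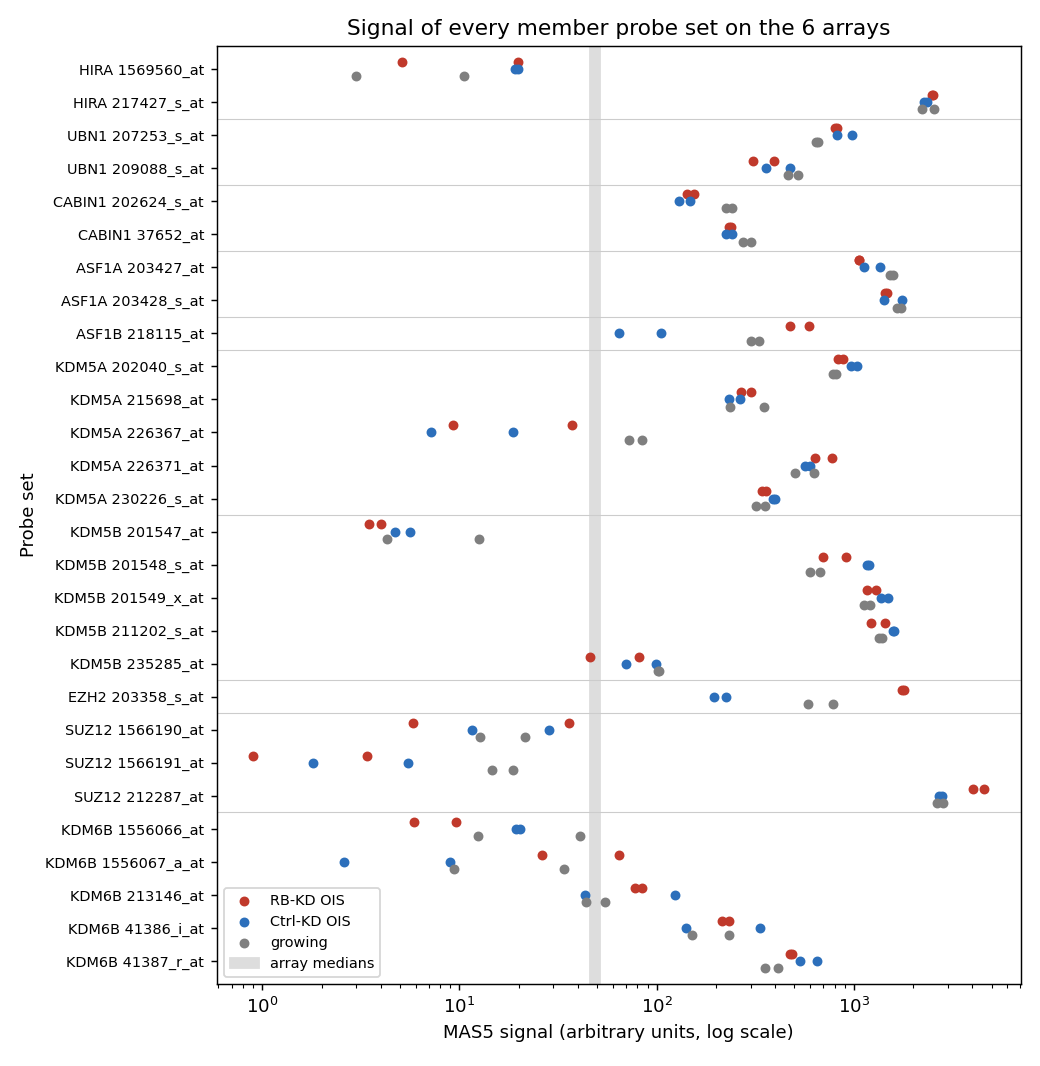
Signal (MAS5, arbitrary units, log axis) of every member probe set, with 1 point per array, RB-KD OIS in red above Ctrl-KD OIS in blue above growing in gray, and a gray band for the array medians. EZH2 lies at 1748.8 and 1790.8 in RB-KD OIS, 195.8 and 225.6 in Ctrl-KD OIS and 782.5 and 585.4 in growing cells, whereas HIRA 217427_s_at stays between 2212.7 and 2547.4 on all 6 arrays.

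Between the OIS states, 3 of 22 member probe sets were called higher and 1 lower (18.2%), against 16.9% of all probe sets tested (8.96% higher and 7.93% lower). The arrays of these states did not overlap for 13 of 22, against 55.3% of all probe sets, and the members' median was -0.05 against -0.03. For RB-KD OIS over growing cells, 2 were called higher and 2 lower (18.2%), against 30.5% of all (14.0% higher and 16.5% lower, that is, 4218 higher and 4961 lower, which became 5230 and 3788 under median centring), with a median of 0.08 against -0.07. For Ctrl-KD OIS over growing cells, 3 were called higher and 3 lower (27.3%), against 34.1% of all (15.8% higher and 18.3% lower, that is, 4755 higher and 5515 lower, which turned to 5613 and 4561 under median centring and 5324 and 4948 under quantile normalization), with a median of -0.02 against -0.05. These shares are near or below those of all probe sets, so they are no result about the members as a group, and the description turns on single genes. Arrays did not overlap for 16 and 14 of 22 members in these comparisons with growing cells, against 67.1% and 67.8% of all probe sets. The 3 comparisons share arrays, so their values are not independent of each other.

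**Figure D2:**
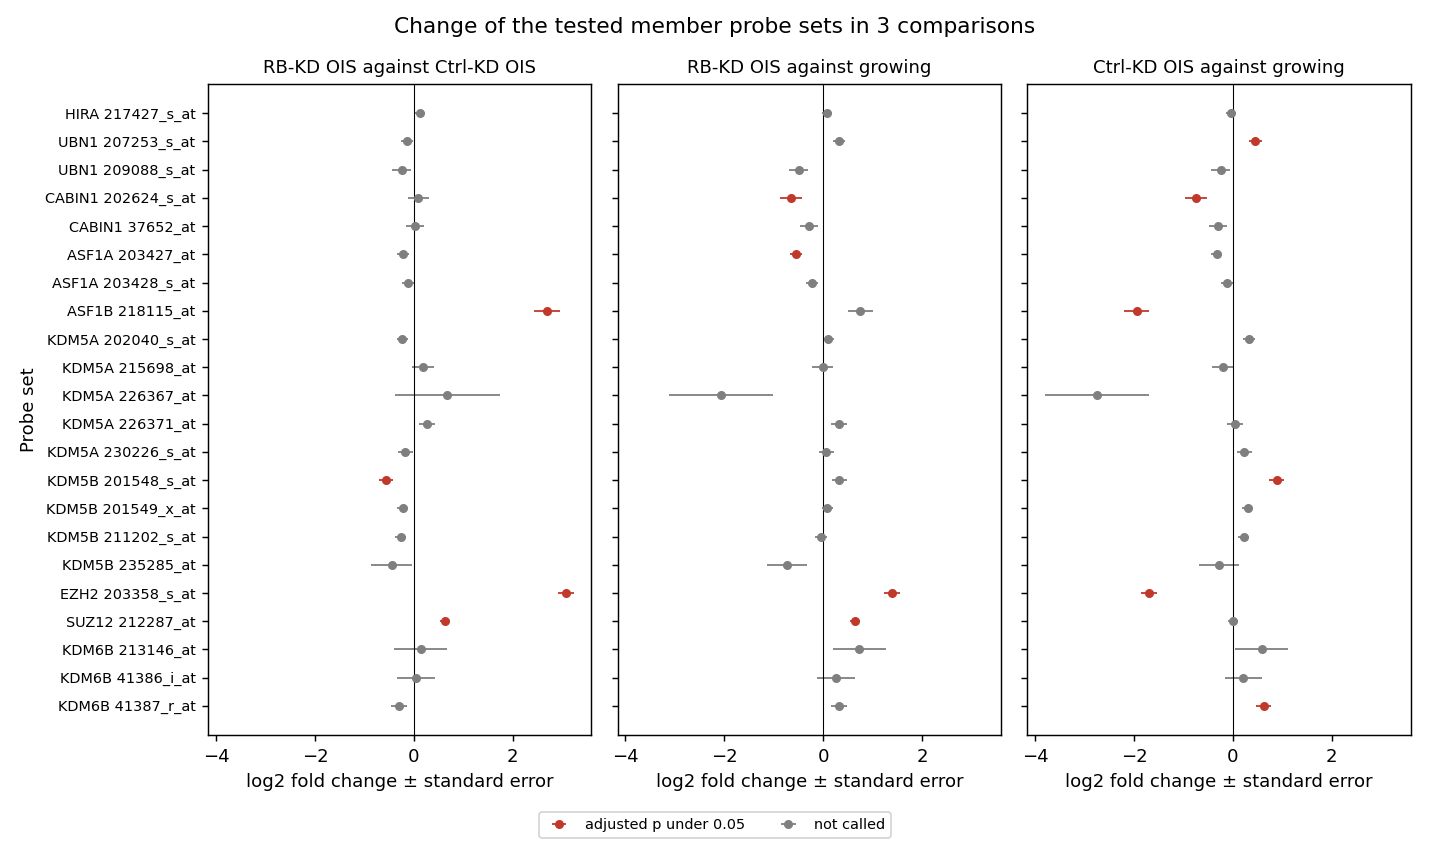
Log2 change of each of the 22 tested member probe sets in the 3 comparisons, 1 panel each, with bars of 1 standard error from limma and called probe sets (adjusted p under 0.05) in red. EZH2 (3.07) and ASF1B (2.69) stand far to the right in the panel between the OIS states, where the other tested probe sets lie between -0.56 and 0.68.

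The HIRA complex changed little between the OIS states, and none of its 5 tested probe sets was called there. HIRA (chr22:19330698-19431733, GRCh38.p14), its scaffold subunit, gave 2526.1 and 2484.7 in RB-KD OIS cells, 2353.0 and 2261.1 in Ctrl-KD OIS cells, and 2547.4 and 2212.7 in growing cells on 217427_s_at. The growing arrays span both OIS states, and the change was 0.12 between the OIS states (adjusted p = 0.489, limma), 0.08 in RB-KD OIS over growing cells and -0.04 in Ctrl-KD OIS over growing cells. A second HIRA probe set, 1569560_at, stayed between 3.0 and 19.9 on all arrays and was not tested.

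UBN1 (ubinuclein, chr16:4847481-4882401), the subunit that recognises H3.3, read 825.3 and 801.9 in RB-KD OIS cells, 975.7 and 820.4 in Ctrl-KD OIS cells, and 661.2 and 646.8 in growing cells on 207253_s_at. Both OIS states lay above growing cells, and the Ctrl-KD OIS rise of 0.45 (standard error 0.13) was called (adjusted p = 0.0227), whereas RB-KD OIS cells differed from growing cells by 0.32 (adjusted p = 0.0976). The other UBN1 probe set, 209088_s_at, lay the opposite way, with 393.1 and 308.8 in RB-KD OIS cells, 477.1 and 358.7 in Ctrl-KD OIS cells, and 519.0 and 466.3 in growing cells (-0.50, adjusted p = 0.0803, for RB-KD OIS over growing cells). The UBN1 call was lost without the first Ctrl-KD OIS array (0.33), without the first growing array (0.47) or the second (0.44), without the variance trend, and on the mean of both probe sets (0.10).

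CABIN1 (calcineurin-binding protein 1, chr22:24011304-24178628), the third subunit, read 142.4 and 154.1 in RB-KD OIS cells, 130.3 and 147.8 in Ctrl-KD OIS cells, and 241.2 and 225.0 in growing cells on 202624_s_at. It was lower in both OIS states, with -0.65 (adjusted p = 0.0494) for RB-KD OIS and -0.75 (standard error 0.22, adjusted p = 0.0258) for Ctrl-KD OIS over growing cells, and the OIS arrays overlapped each other. On 37652_at CABIN1 gave 237.3 and 233.4 in RB-KD OIS cells, 223.9 and 240.8 in Ctrl-KD OIS cells, and 273.9 and 299.9 in growing cells, the same order, with changes of -0.28 and -0.30 that were not called. The CABIN1 calls are near the threshold. That of RB-KD OIS cells was lost without either RB-KD OIS array (-0.60 without the first, -0.71 without the second) or either growing array (-0.60 and -0.70), under quantile normalization (-0.53) and median centring (-0.54), without the filter, and with a replicate block. That of Ctrl-KD OIS cells was lost without the first Ctrl-KD OIS array (-0.66) or either growing array (-0.70 and -0.80), under quantile normalization (-0.59), and without the filter.

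In a wider list of 8 measured H3.3 deposition genes, each read from its brightest probe set, 0 were higher and 1 lower between the OIS states (median 0.05), against 21.9% of all 13398 genes called in either direction (11.6% higher and 10.3% lower, median -0.02). DAXX, the H3.3 chaperone that works with ATRX, fell by 0.58 there (adjusted p = 0.016). Its signals were 532.5 and 607.1 in RB-KD OIS cells, 859.8 and 836.8 in Ctrl-KD OIS cells, and 527.7 and 559.0 in growing cells, so that RB-KD OIS and growing arrays overlap. ATRX, its remodeller partner, was below its growing level, by -0.43 for RB-KD OIS and by -0.50 for Ctrl-KD OIS arrays. The DAXX call was lost without the first RB-KD OIS array (-0.48), without the first Ctrl-KD OIS array (-0.56) or without the variance trend, and both ATRX calls without either growing array (-0.44 and -0.42 in RB-KD OIS cells, -0.52 and -0.49 in Ctrl-KD OIS cells) and without that trend, that of RB-KD OIS cells also without either RB-KD OIS array (-0.47 and -0.39) and under median centring (-0.32). In RB-KD OIS over growing cells the list held 0 higher and 1 lower gene (median 0.07, with 36.5% of all genes called, 18.0% higher and 18.4% lower), and in Ctrl-KD OIS over growing cells 2 higher and 1 lower (median -0.06, with 40.6% of all genes called, 19.9% higher and 20.7% lower).

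The paralogous pair ASF1A and ASF1B, which hand H3-H4 on to HIRA and CAF-1, separated. In mammals ASF1A is the form that binds HIRA preferentially, and ASF1B is known as the form of proliferating cells. ASF1B (chr19:14119512-14136589, 218115_at) gave 473.1 and 595.5 in RB-KD OIS cells, 64.6 and 104.8 in Ctrl-KD OIS cells, and 302.0 and 332.7 in growing cells. None of the states overlapped. ASF1B rose by 2.69 (standard error 0.25, adjusted p = 0.000183) between the OIS states and was lower by -1.95 (standard error 0.25, adjusted p = 0.000287) for Ctrl-KD OIS over growing cells. These 2 calls held in all 16 alternatives run on them, with ranges of 2.34 to 3.04 and -2.29 to -1.60. In RB-KD OIS over growing cells the change of 0.74 just missed the threshold (adjusted p = 0.0524) and passed it in 9 alternatives (0.58 to 0.91 over all of them, adjusted p 0.0103 to 0.251).

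ASF1A (chr6:118894152-118909171) moved little and in another order. On 203427_at it gave 1064.9 and 1060.2 in RB-KD OIS cells, 1353.6 and 1124.2 in Ctrl-KD OIS cells, and 1577.4 and 1525.2 in growing cells, with no overlap between states. It was 1.46-fold lower in RB-KD OIS over growing cells (log2 -0.55, adjusted p = 0.00706, limma), a call lost without the first growing array (-0.52) and without the variance trend, and differed by -0.22 between the OIS states (adjusted p = 0.271). On 203428_s_at ASF1A gave 1434.3 and 1470.2 in RB-KD OIS cells, 1418.6 and 1747.6 in Ctrl-KD OIS cells, and 1741.6 and 1666.2 in growing cells, and was called in no comparison (-0.23, adjusted p = 0.184, for RB-KD OIS over growing cells). The Ctrl-KD OIS arrays of that probe set span the other states.

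The promoter of ASF1B is printed because ASF1B and EZH2 followed the same order of states, RB-KD OIS above growing above Ctrl-KD OIS. It is the RefSeq window (GRCh38.p14) of 250 bases before to 50 bases after the gene's start, chr19:14136540-14136839 on the minus strand, written along the gene. Capitals mark matches on either strand to 3 promoter words, which are CCAAT, bound by NF-Y (ATTGG on the other strand), the CHR words TTTGAA and TTCGAA (cell cycle homology region, bound by the DREAM and MuvB complexes), and the E2F words TTTCCCGC, TTTGGCGC, TTTCGCGC and TTTGCCGC.
ASF1B: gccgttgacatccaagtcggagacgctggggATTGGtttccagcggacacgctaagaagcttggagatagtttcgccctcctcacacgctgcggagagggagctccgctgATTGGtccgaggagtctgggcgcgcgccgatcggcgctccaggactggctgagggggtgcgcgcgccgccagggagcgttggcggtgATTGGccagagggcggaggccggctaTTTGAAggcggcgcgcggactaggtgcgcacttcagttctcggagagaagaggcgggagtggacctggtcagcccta
ASF1B held CCAAT words 219, 140 and 53 bases before the start and a CHR word 27 bases before it, and none of the 4 E2F words. Over the 10 genes, of which 3 have a second RefSeq window, an E2F word stood in the windows of 3 (HIRA, EZH2 and SUZ12), a CHR word in 4 (UBN1, CABIN1, ASF1B and SUZ12) and CCAAT in 6. Of all 35116 RefSeq windows of 300 bases, 3.31% held an E2F word, 16.4% a CHR word and 34.6% CCAAT. KDM5A, KDM5B and KDM6B held none of the 3. A match describes letters and was not tested as a site.

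Most other genes listed with the replication-coupled H3-H4 chaperones, some of them partners rather than chaperones, rose with RB knockdown as well. Of 10 measured replication-coupled H3-H4 chaperone genes, ASF1B included, 7 were higher and 0 lower between the OIS states (median 0.99 against -0.02 over all genes), 4 higher and 0 lower in RB-KD OIS over growing cells (median 0.42), and 0 higher and 5 lower in Ctrl-KD OIS over growing cells (median -0.54). Over all genes, 11.6% were higher and 10.3% lower between the OIS states. Against growing cells these shares were 18.0% and 18.4% for RB-KD OIS, and 19.9% and 20.7% for Ctrl-KD OIS cells. CHAF1B, a subunit of CAF-1, gave 334.9 and 131.6 in RB-KD OIS cells, 10.5 and 60.5 in Ctrl-KD OIS cells, and 274 and 162 in growing cells. It rose by 3.06 between the OIS states (adjusted p = 0.0214), where the first Ctrl-KD OIS array read below the array median, and this call was lost without that array (1.79), without the first RB-KD OIS array (2.38), or without the variance trend. NASP, which holds a soluble H3-H4 reserve, gave 3926.3 and 3830.1 in RB-KD OIS cells, 1736.6 and 1867.7 in Ctrl-KD OIS cells, and 2340.9 and 2188.7 in growing cells. It rose by 1.11 against Ctrl-KD OIS cells (adjusted p = 9.88e-05) and by 0.78 against growing cells, which was 0.09 and not called on the mean of its probe sets. HAT1, which acetylates new H4, was higher in RB-KD OIS cells by 0.87 against Ctrl-KD OIS cells and by 0.70 against growing cells. Among 10 other chaperone genes, 3 were higher and 0 lower between the OIS states (median 0.27), among them SUPT16H (0.61) and SSRP1 (0.66), the subunits of FACT, of which SSRP1 was not called without the first RB-KD OIS array (0.60). Without the variance trend, 0 of these 10 were called there. HJURP, the chaperone of the centromeric H3 variant, stayed below growing cells in both OIS states, by -2.72 in RB-KD OIS cells and -3.71 in Ctrl-KD OIS cells. The 7 replication-coupled genes called higher between the OIS states became 6 to 7 with any 1 array left out and 4 without the variance trend, and the 5 called lower over growing cells became 2 without the first growing array, 2 without that trend and 3 once the first Ctrl-KD OIS array was dropped.

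EZH2 (chr7:148807383-148884291, 203358_s_at), the catalytic subunit of PRC2, gave 1748.8 and 1790.8 in RB-KD OIS cells, 195.8 and 225.6 in Ctrl-KD OIS cells, and 782.5 and 585.4 in growing cells. The states were fully separated. RB-KD OIS cells averaged 1770 ± 29.7, Ctrl-KD OIS cells 210.7 ± 21.1 and growing cells 684 ± 139 (SD, n = 2 each). EZH2 rose by 3.07 (standard error 0.16, adjusted p = 8.1e-06, limma) between the OIS states and by 1.39 (adjusted p = 0.000201) in RB-KD OIS over growing cells, and was lower by -1.69 (standard error 0.16, adjusted p = 4.32e-05) for Ctrl-KD OIS over growing cells. All 3 calls held in every one of the 16 alternatives, with ranges of 2.97 to 3.18, 1.18 to 1.60 and -1.90 to -1.48.

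SUZ12 (chr17:31937007-32001038), which holds EZH2 in an active complex, was called higher in the RB-KD OIS state than in either other one. On 212287_at it gave 4012.4 and 4576.3 in RB-KD OIS cells, 2796.8 and 2718.3 in Ctrl-KD OIS cells, and 2658.2 and 2824.5 in growing cells. Ctrl-KD OIS arrays lay within the growing range (0.01, adjusted p = 0.956), and RB-KD OIS arrays lay above both, by 0.64 against Ctrl-KD OIS cells (adjusted p = 0.00242) and 0.65 against growing cells (adjusted p = 0.000935). The other lone SUZ12 probe sets were weak, 1566190_at at 5.8 to 36.0 and 1566191_at at 0.9 to 18.8 over the arrays, and were not tested. The probe set shared with SUZ12P1 gave 406.5 and 292.6 in RB-KD OIS cells, 289.3 and 199.5 in Ctrl-KD OIS cells, and 295.4 and 357.7 in growing cells, so that the Ctrl-KD OIS arrays lay below all others and the other states overlapped. Averaging SUZ12 over its 3 probe sets, the weak ones included, turned both values negative (-0.18 and -0.93, not called), and the call between the OIS states was lost without the variance trend.

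The promoters of EZH2 (chr7:148884242-148884541, minus strand) and SUZ12 (chr17:31936757-31937056, plus strand) are the windows of the 2 called PRC2 members, marked in the same way.
EZH2: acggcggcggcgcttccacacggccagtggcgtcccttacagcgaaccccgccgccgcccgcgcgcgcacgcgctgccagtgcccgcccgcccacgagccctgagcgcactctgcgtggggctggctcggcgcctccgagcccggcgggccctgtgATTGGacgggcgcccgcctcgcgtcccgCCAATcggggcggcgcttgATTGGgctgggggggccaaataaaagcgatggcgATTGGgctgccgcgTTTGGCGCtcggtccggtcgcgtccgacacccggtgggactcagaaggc
SUZ12: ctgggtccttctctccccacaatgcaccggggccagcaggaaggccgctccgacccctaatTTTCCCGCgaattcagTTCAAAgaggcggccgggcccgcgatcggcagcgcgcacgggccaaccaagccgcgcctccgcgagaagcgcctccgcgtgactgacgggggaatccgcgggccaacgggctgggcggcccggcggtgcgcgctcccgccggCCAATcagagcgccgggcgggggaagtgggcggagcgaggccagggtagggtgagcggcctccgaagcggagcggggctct
EZH2 held the E2F word TTTGGCGC, beginning 1 base after the start, and CCAAT words 94, 66, 47 and 13 bases before it, with no CHR word. SUZ12 held the E2F word TTTCCCGC 189 bases before the start, a CHR word (TTCAAA, the other strand of TTTGAA) 173 bases before it and CCAAT 31 bases before it. A second RefSeq window of EZH2 held none of these words.

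The rise in RB-KD OIS cells reached the rest of the PRC2 core. Of 12 measured PRC2 genes, EZH2 and SUZ12 included, 6 were higher and 0 lower between the OIS states (median 0.50 against -0.02 over all genes), 8 higher and 1 lower in RB-KD OIS over growing cells (median 0.65), and 2 higher and 4 lower in Ctrl-KD OIS over growing cells (median -0.12). All genes had shares of 11.6% higher and 10.3% lower between the OIS states. They were 18.0% and 18.4% in RB-KD OIS, and 19.9% and 20.7% in Ctrl-KD OIS over growing cells. EED, which binds the H3K27 mark, gave 4120.2 and 4624.7 in RB-KD OIS cells, 1823.2 and 2008.5 in Ctrl-KD OIS cells, and 2069.5 and 2131.9 in growing cells. Its rise was 1.19 against Ctrl-KD OIS cells (adjusted p = 9.88e-05) and 1.06 against growing cells, and Ctrl-KD OIS cells differed from growing cells by -0.13 (adjusted p = 0.35). The histone-binding subunits RBBP4 and RBBP7, which CAF-1 also uses and which therefore count in both lists, rose by 0.76 and 1.20 against Ctrl-KD OIS cells. Of the 8 genes higher in RB-KD OIS over growing cells, RBBP7 (0.45), PHF1 (0.55) and MTF2 (0.87) were not called without the variance trend. RBBP7 fell to 0.32 without the second RB-KD OIS array. Without the second growing array, PHF1 fell to 0.25 and MTF2 to 0.60.

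Other PRC2 genes kept their own order. JARID2, an accessory subunit, was higher than in growing cells in both OIS states, by 1.49 in RB-KD OIS cells and 1.22 in Ctrl-KD OIS cells, with 1563.9 and 1607.3 in RB-KD OIS cells, 1318.0 and 1297.3 in Ctrl-KD OIS cells, and 516.0 and 614.4 in growing cells. EZH1, the alternative catalytic subunit found in resting cells, was lower than in growing cells, by -0.66 in RB-KD OIS cells and -0.50 in Ctrl-KD OIS cells. Relative to growing cells, EZH1 was thus lower in RB-KD OIS cells where EZH2 was higher, whereas both were lower in Ctrl-KD OIS cells. Between the OIS states EZH1 differed by -0.16, which was not called. EPOP, another accessory subunit, was at least 2.77-fold higher in Ctrl-KD OIS cells, with 209 and 94.3, against 8.7 and 36.1 in growing cells, which lay below the array median (adjusted p = 0.0106), a call lost without the first Ctrl-KD OIS array or the variance trend. The EZH1 calls were lost without the second growing array (-0.59 in RB-KD OIS cells) and on the mean of its probe sets (-0.15 in RB-KD OIS cells), and that of Ctrl-KD OIS cells without any 1 of its 4 arrays (-0.56 to -0.43), under quantile normalization (-0.35) or median centring (-0.40), without the filter and on that mean (-0.69), so that it was made in 8 of 16 alternatives. The 6 PRC2 calls between the OIS states were 6 with any 1 array left out and 3 without the variance trend, and the 2 higher and 4 lower genes of Ctrl-KD OIS over growing cells became 4 and 3 without the first growing array and 1 and 3 once the first Ctrl-KD OIS array was left out.

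**Figure D3:**
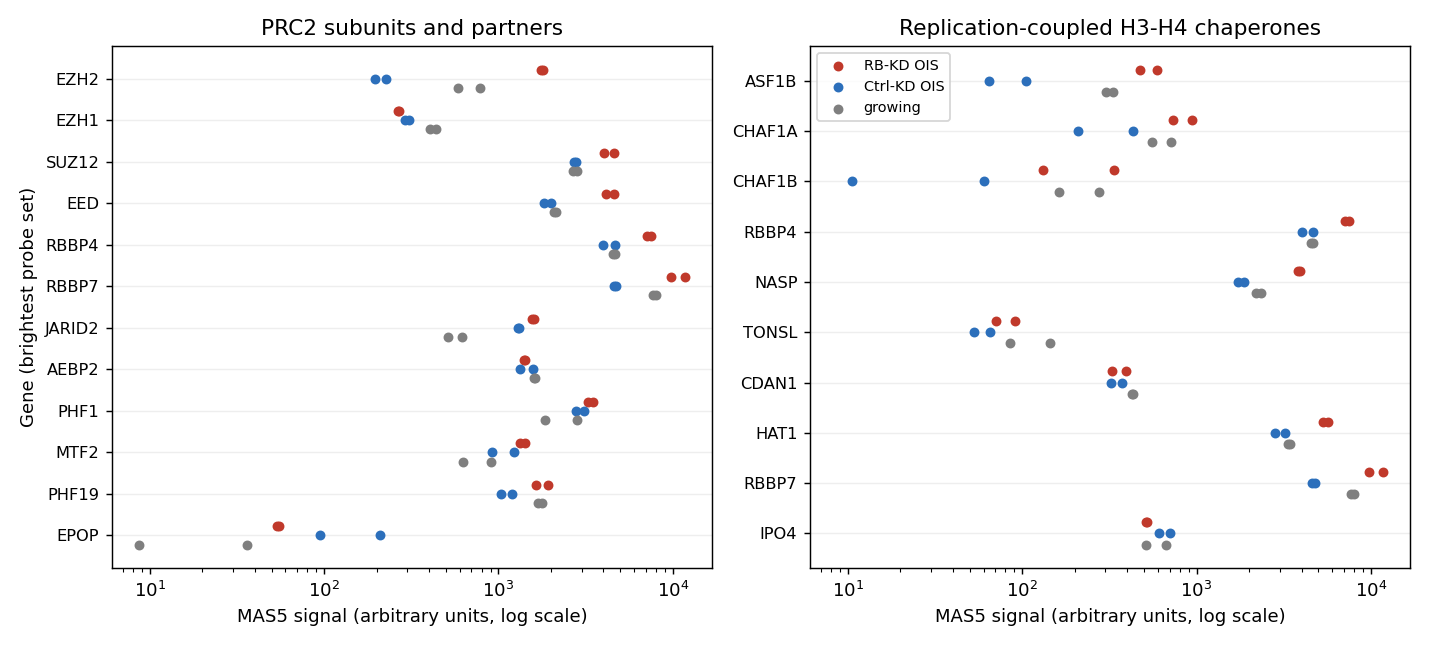
Signal (MAS5, arbitrary units, log axis) of the 12 PRC2 genes and the 10 replication-coupled H3-H4 chaperone genes, each read from its brightest probe set, with 1 point per array for RB-KD OIS in red, Ctrl-KD OIS in blue and growing cells in gray. Both RB-KD OIS arrays lie to the right of all others for EZH2, SUZ12, EED, RBBP4, RBBP7, JARID2, PHF1 and MTF2, and for ASF1B, CHAF1A, NASP and HAT1 among the other genes.

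Proliferation genes moved beside EZH2, ASF1B and these lists. Of 17 cell cycle genes, 11 were higher and 0 lower between the OIS states (median 1.43), 7 higher and 8 lower in RB-KD OIS over growing cells (median 0.06), and 0 higher and 17 lower in Ctrl-KD OIS over growing cells (median -2.27). The shares of all genes were 11.6% higher and 10.3% lower between the OIS states. For RB-KD OIS over growing cells they were 18.0% and 18.4%, and for Ctrl-KD OIS over growing cells 19.9% and 20.7%. Their summed signal was 55857.9 and 60833.4 in RB-KD OIS cells, 12333.4 and 15692.7 in Ctrl-KD OIS cells, and 57166.7 and 57071.4 in growing cells, and all 17 lay above the array median on every array. The part of proliferation in the changes of EZH2 and ASF1B was not tested.

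Genes of that list did not share an order against growing cells. CCNE2, the gene of cyclin E2, had the largest change of that list between the OIS states (6.13). It also had the largest rise of the list in RB-KD OIS over growing cells (2.85). Its signals were 5312.4 and 6106.5 in RB-KD OIS cells, 61.8 and 107.6 in Ctrl-KD OIS cells, and 805.9 and 777.1 in growing cells. MCM3, a subunit of the replicative helicase, was higher by 1.22 in RB-KD OIS over growing cells, and the helicase subunits MCM5 (0.44) and MCM7 (0.06) were not called. TOP2A, MKI67 and RRM2, the last a subunit of ribonucleotide reductase, were lower by -3.04, -2.15 and -0.90, and the RRM2 call was lost without the first RB-KD OIS array, the first growing array or the variance trend. EZH2 was higher by 1.39 in the same comparison.

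The genes whose profile over the 6 arrays lay closest to EZH2 were sought by the root-mean-square distance between log2 profiles, each minus its own mean, over 13397 genes. The closest was MCM3 (distance 0.13), followed by TMEM106C (0.17), TIFA (0.24), ZNRF2 (0.28) and CDC6 (0.28), of which CDC6 loads the MCM helicase. MCM3 gave 3302.5 and 3709.0 in RB-KD OIS cells, 342.3 and 424.2 in Ctrl-KD OIS cells, and 1657.5 and 1359.9 in growing cells. ASF1B was the 14th closest to EZH2 (0.35), and SUZ12 ranked 1094 (1.03). The closest to ASF1B were PCLAF (0.17), a PCNA-binding factor, MCM2 (0.20), OXCT1 (0.21), GINS2 (0.21), a replication fork subunit, and HELLS (0.22), a chromatin remodeller. These distances describe 6 arrays in 3 states, and many genes share such a profile.

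**Figure D4:**
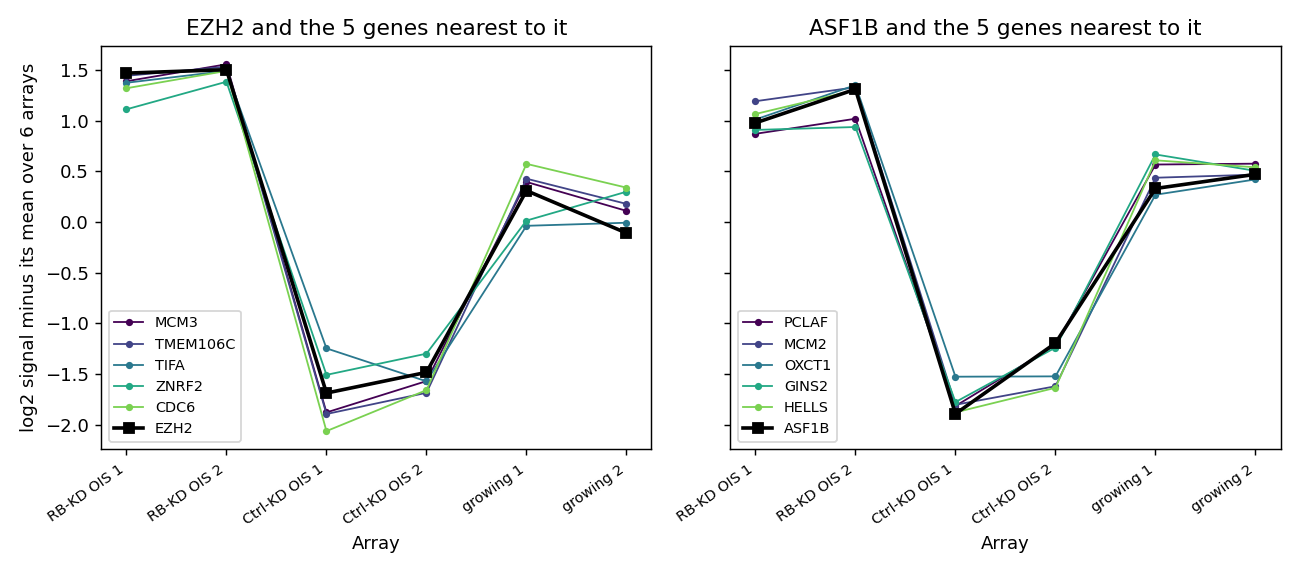
Log2 signal minus its mean over the 6 arrays for EZH2 and ASF1B (black squares), each with the 5 genes closest to it, over RB-KD OIS, Ctrl-KD OIS and growing arrays from left to right. Both profiles are highest on the RB-KD OIS arrays and lowest on the Ctrl-KD OIS arrays, and MCM3 stays within a root-mean-square distance of 0.13 of EZH2.

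KDM6B (chr17:7834217-7854796), the H3K27 demethylase, was highest in Ctrl-KD OIS cells on its brightest probe set. On 41387_r_at it gave 483.8 and 474.5 in RB-KD OIS cells, 653.3 and 531.4 in Ctrl-KD OIS cells, and 415.2 and 354.3 in growing cells. The states did not overlap, and the rise of 0.62 (standard error 0.16, adjusted p = 0.0142) for Ctrl-KD OIS over growing cells was called. RB-KD OIS cells differed from Ctrl-KD OIS cells by -0.30 (adjusted p = 0.256) and from growing cells by 0.32 (adjusted p = 0.167), which leaves them in between without a call on either side.

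The first Ctrl-KD OIS array stood above the second on every tested KDM6B probe set. On 213146_at it read 77.5 and 84.4 in RB-KD OIS cells, 124.7 and 43.3 in Ctrl-KD OIS cells, and 43.7 and 54.9 in growing cells, and on 41386_i_at 214.2 and 234.2 in RB-KD OIS cells, 335.2 and 140.3 in Ctrl-KD OIS cells, and 232.4 and 151.2 in growing cells. On both, the Ctrl-KD OIS arrays span all others, and no comparison was called (0.59, adjusted p = 0.446, and 0.21, adjusted p = 0.714, for Ctrl-KD OIS over growing cells). The call on 41387_r_at was lost without the first Ctrl-KD OIS array (0.47), without the second growing array (0.51), without the variance trend, and on the mean of all KDM6B probe sets, where it turned to -0.13. Of the weak KDM6B probe sets, 1556066_at read 5.9 to 41.0, and 1556067_a_at 64.4 and 26.3 in RB-KD OIS cells, 9.0 and 2.6 in Ctrl-KD OIS cells, and 34.0 and 9.4 in growing cells, which is above the median on 1 array only. The closest profiles to KDM6B 41387_r_at were CARNMT1 (distance 0.04), SNAPC1, DUSP3, LDB1 and CMTM7, and UBN1 ranked 42 (0.10).

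Of the 3 H3K27 demethylase genes measured, 0 were called between the OIS states by limma (2 at an unadjusted p under 0.05, median -0.30, and 1 called higher without the first Ctrl-KD OIS array), 1 was higher in RB-KD OIS over growing cells (median 0.48), and 2 in Ctrl-KD OIS over growing cells (median 0.62). Higher calls made up 11.6%, 18.0% and 19.9% of all genes in the same order. KDM7A, which also acts on H3K9, gave 297.8 and 313.6 in RB-KD OIS cells, 485.8 and 439.3 in Ctrl-KD OIS cells, and 257.6 and 186.7 in growing cells, a rise of 1.07 (adjusted p = 0.00211) in Ctrl-KD OIS over growing cells. KDM6A (UTX), the relative of KDM6B, was higher in RB-KD OIS over growing cells by 0.58, at the threshold (adjusted p = 0.0498), a call lost without any 1 of the 4 arrays compared (0.53 to 0.62). At the INK4 locus, a known PRC2 target, CDKN2A gave 1276.1 and 1063.1 in RB-KD OIS cells, 1095.6 and 1150.5 in Ctrl-KD OIS cells, and 588.3 and 537.3 in growing cells. It was higher by 1.05 in RB-KD OIS and by 1.00 in Ctrl-KD OIS cells relative to growing ones, and the OIS arrays overlapped. Its probe set was not used to tell p16 from ARF mRNA, and the mean of all CDKN2A probe sets was not called (0.84 in RB-KD OIS and 0.28 in Ctrl-KD OIS cells). CDKN2B, the p15 gene beside it, gave 1742.2 and 1117.4 in RB-KD OIS cells, 2213.4 and 1815.1 in Ctrl-KD OIS cells, and 572.6 and 472.4 in growing cells. It was higher by 1.42 in RB-KD OIS and by 1.95 in Ctrl-KD OIS cells relative to growing ones, and the RB-KD OIS arrays lay below the Ctrl-KD OIS arrays by a difference that was not called (-0.52, adjusted p = 0.115). That difference was called without the first RB-KD OIS array (-0.84) and with a replicate block, in 2 of 16 alternatives in all, and the CDKN2B call in RB-KD OIS over growing cells was lost on the mean of its probe sets (0.75).

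Of 15 measured genes of Polycomb repressive complex 1 (PRC1), which reads the H3K27 mark, 2 were higher and 0 lower between the OIS states (median 0.12). Of all genes there, 11.6% were higher and 10.3% lower. Over growing cells the shares of all genes were 18.0% and 18.4% for RB-KD OIS, and 19.9% and 20.7% for Ctrl-KD OIS cells. CBX2, a reader subunit, gave 369.4 and 432.9 in RB-KD OIS cells, 109.3 and 85.9 in Ctrl-KD OIS cells, and 110.5 and 76.9 in growing cells. It rose by 2.05 against Ctrl-KD OIS cells (adjusted p = 0.00116) and by 2.12 against growing cells, so that, as for SUZ12 and EED, the RB-KD OIS arrays lay above both other states. PCGF6, a subunit of a variant PRC1, was the other (0.53), not called without the first RB-KD OIS array (0.45) or the first Ctrl-KD OIS array (0.46). The mean of all CBX2 probe sets gave 0.86 against Ctrl-KD OIS cells and 0.44 against growing cells, neither called. Against growing cells, PRC1 had 3 higher and 5 lower genes in RB-KD OIS cells (median -0.08) and 3 higher and 6 lower in Ctrl-KD OIS cells (median 0.02), which without the first growing array became 2 and 2 in RB-KD OIS cells and 0 and 5 in Ctrl-KD OIS cells, and without the second 2 and 3 in RB-KD OIS cells and 1 and 5 in Ctrl-KD OIS cells.

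KDM5B (JARID1B, chr1:202724495-202808421), an H3K4 demethylase, was highest in Ctrl-KD OIS cells. On 201548_s_at it gave 908.9 and 701.2 in RB-KD OIS cells, 1167.5 and 1189.6 in Ctrl-KD OIS cells, and 676.2 and 600.7 in growing cells, with no overlap between states. The rise of 0.89 (standard error 0.15, adjusted p = 0.00127) for Ctrl-KD OIS over growing cells was called in all 14 alternatives that hold this probe set (0.80 to 0.98), and the decrease between the OIS states (-0.56, adjusted p = 0.0295) was called as well. The settings per gene do not hold it. On the mean of all KDM5B probe sets, the weak one included, these changes were 0.12 and -0.39, neither called. The call between the OIS states was lost without the second RB-KD OIS array (-0.37), without either Ctrl-KD OIS array (-0.58 without the first, -0.55 without the second), or without the variance trend.

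On other bright KDM5B probe sets, Ctrl-KD OIS cells were again highest, by less. On 211202_s_at the signals were 1433.5 and 1226.0 in RB-KD OIS cells, 1595.8 and 1590.3 in Ctrl-KD OIS cells, and 1342.6 and 1397.7 in growing cells. On 201549_x_at, whose suffix marks probes that can match other transcripts, they were 1302.7 and 1162.4 in RB-KD OIS cells, 1499.0 and 1375.1 in Ctrl-KD OIS cells, and 1208.0 and 1126.9 in growing cells. On both, Ctrl-KD OIS arrays lay above all others and RB-KD OIS arrays overlapped growing ones, and no comparison was called (0.22 and 0.30 for Ctrl-KD OIS over growing cells, adjusted p = 0.172 and 0.0715). The change of 0.30 on 201549_x_at was called in 4 of 14 alternatives, among them quantile normalization (0.36) and median centring (0.39), and that on 211202_s_at in 0 of 16. The dimmer 235285_at ran from 46.1 to 102.7 with the growing arrays highest, and 201547_at stayed between 3.5 and 12.6 and was not tested.

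KDM5A (JARID1A or RBP2, chr12:280057-389320) was called on none of its 5 probe sets in any of the 3 comparisons by limma (0 of 15 tests, 2 of them with an unadjusted p under 0.05). Its brightest, 202040_s_at, gave 836.2 and 878.9 in RB-KD OIS cells, 1043.1 and 970.7 in Ctrl-KD OIS cells, and 816.5 and 785.6 in growing cells. Here the Ctrl-KD OIS arrays were highest, as for KDM5B, but the change of 0.33 against growing cells (standard error 0.12) missed the threshold (adjusted p = 0.0529), and that of -0.23 between the OIS states had an adjusted p of 0.22. The change against growing cells passed the threshold in 4 of 16 alternatives, among them quantile normalization (0.43) and median centring (0.42). On the mean of all KDM5A probe sets it turned to -0.47.

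On 230226_s_at KDM5A read 341.2 and 360.1 in RB-KD OIS cells, 399.4 and 388.9 in Ctrl-KD OIS cells, and 354.9 and 318.2 in growing cells. On 226371_at it read 634.0 and 772.5 in RB-KD OIS cells, 597.2 and 567.3 in Ctrl-KD OIS cells, and 628.7 and 503.2 in growing cells, with the RB-KD OIS arrays highest. Thus the KDM5A probe sets do not share an order of states. On 215698_at the range was 233.5 to 349.7, both values outside RB-KD OIS cells. The weak 226367_at gave 37.1 and 9.3 in RB-KD OIS cells and 7.2 and 18.7 in Ctrl-KD OIS cells, below the array median, against 84.1 and 72.5 in growing cells. Growing cells were thus at least 1.67-fold above RB-KD OIS cells and at least 1.65-fold above Ctrl-KD OIS cells. This probe set passed the filter only through the growing arrays, where it is high. Its adjusted p values (0.174 and 0.0726, limma) therefore carry no support for a difference.

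Among 6 H3K4 demethylase genes, each read from its brightest probe set, 0 were higher and 1 lower between the OIS states (median -0.24), 1 higher and 1 lower in RB-KD OIS over growing cells (median 0.04), and 1 higher and 0 lower in Ctrl-KD OIS over growing cells (median 0.24). The 1 higher gene of Ctrl-KD OIS over growing cells, KDM1B, became 0 without the first array of either state and on the mean of probe sets, and the count became 2 under quantile normalization and 3 under median centring, the filter at percentile 70 or 1 probe set per gene. The 1 higher and 1 lower gene of RB-KD OIS over growing cells became 0 and 0 without any 1 of the 4 arrays compared or the variance trend. KDM1B (LSD2) was likewise highest in Ctrl-KD OIS cells, with 159.5 and 160.3 in RB-KD OIS cells, 427.6 and 380.5 in Ctrl-KD OIS cells, and 215.1 and 263.6 in growing cells. It fell by 1.33 between the OIS states (adjusted p = 0.00169), or by 0.80 and uncalled on the mean of its probe sets, and also lay below growing cells (-0.57, adjusted p = 0.0478), a call made in 3 of 16 alternatives only and lost without any 1 of the 6 arrays (-0.72 to -0.43). Of 19 genes of the H3K4 methyltransferases and their complexes, 3 were higher and 1 lower between the OIS states (median 0.15), 1 higher and 4 lower in RB-KD OIS over growing cells (median 0.09), and 1 higher and 3 lower in Ctrl-KD OIS over growing cells (median -0.18). All genes were called in either direction at 21.9%, 36.5% and 40.6% in the same order. Calls in either direction in both H3K4 lists are near or below these shares, so they are no result about the lists. The 3 higher became 1 without the variance trend, and the 4 lower became 2 without either growing array or the second RB-KD OIS array.

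SETD7, which monomethylates H3K4 and other proteins, gave 2491.2 and 2852.4 in RB-KD OIS cells, 7083.8 and 7819.3 in Ctrl-KD OIS cells, and 4221.9 and 4413.0 in growing cells. It fell by 1.48 between the OIS states (adjusted p = 2.46e-05), an order opposite to that of EZH2 in all 3 states, and this change was -0.76 and not called on the mean of its probe sets. On that mean, the change of SETD7 in Ctrl-KD OIS over growing cells turned from 0.79 to -0.16, so this order did not hold there. PAXIP1 (PTIP), a subunit of the KMT2C and KMT2D complexes, was higher in RB-KD OIS cells, with 1510.5 and 1483.9, against 831.5 and 785.7 on Ctrl-KD OIS arrays (0.89, adjusted p = 0.000766). HCFC2 had the largest called changes of this list against growing cells, -1.15 in RB-KD OIS and -1.83 in Ctrl-KD OIS cells.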

How the data were processed

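Gene expression was measured in IMR90 ER:Ras cells on 6 Affymetrix U133 Plus 2.0 arrays, 2 per state, grouped by their labels. The authors computed MAS5 signals in Affymetrix Expression Console (versions not given in the sources used here), and the deposited values are these linear signal intensities for 54613 probe sets, scaled by the authors to a common level (trimmed mean 496.2 to 496.5, median 46 to 51.8) and without detection calls. Such scaling fixes each array's mean, so a change of total RNA would not be seen. The annotation names 1 gene for 41091 probe sets, several for 1801 and none for 11721.

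The log2 of each signal was used, no offset being added. A filter kept 30139 probe sets (55.2%), those exceeding their array's median on 2 or more of 6 arrays, which were fitted in R 4.3.3 with limma 3.58.1 (a mean per state, all arrays, trend in the prior variance), with Benjamini-Hochberg adjustment over all of them and a threshold of 0.05. For lists, a gene was read from its brightest probe set naming it alone. A value in a state below the array median on both arrays is bounded at that median. Pearson's r over all probe sets, which are not independent, lay between 0.92 and 0.93 for replicates and between 0.89 and 0.92 for arrays of different states. Precision is limited by the number of arrays: with 2 against 2, the smallest two-sided exact permutation p is 0.333.

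Planned for naming were all member probe sets, RB1 and HRAS, up to 4 called genes of each list with the largest change per comparison, and the 5 genes nearest to EZH2, ASF1B and KDM6B. Not every list gene that this rule picks is named in the text. Genes named beyond these were chosen after their values were seen. The members and lists were chosen with earlier results of these data known. The fits were repeated with each array left out, with a replicate block, with only the 2 states compared, without the variance trend, without the filter or with one at percentile 70, with 1 probe set or the mean of all per gene, with an offset of 12.5, and after median centring or quantile normalization. Promoter windows came from RefSeq (GRCh38.p14), where all 10 genes matched. Other measurements of the study were not analysed here.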

Additional observations from a re-analysis of the deposited data

How the results depend on the processing

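Of 66 member values (22 probe sets in 3 comparisons), 14 were called, 6 of them in every alternative run (EZH2 in all 3 comparisons, ASF1B between the OIS states and in Ctrl-KD OIS over growing cells, and KDM5B 201548_s_at in Ctrl-KD OIS over growing cells), and 39 of the 66 never changed sign. Between the OIS states, 5090 called probe sets became 1703 genes with the mean of all probe sets per gene, 1141 without the variance trend and 2645 (without RB-KD OIS replicate 1) to 4319 with 1 array left out, and the 1 member called lower became 0 with 1 probe set per gene, with that mean and without a trend, and 0 to 1 with 1 array left out. For RB-KD OIS over growing cells, 9179 became 5026 with 1 probe set per gene, 3092 with the mean and 6113 without a trend, and 5776 (without growing replicate 1; 5800 without the second) to 9880 with 1 array left out. Its 2 members called higher became 4 under quantile normalization and 1 with the mean, and its 2 called lower became 0 with 1 probe set per gene, 1 under quantile normalization, median centring, no filter, the filter at percentile 70, the mean and no trend, and 0 to 2 with 1 array left out (2 to 3 for those called higher). For Ctrl-KD OIS over growing cells, 10270 became 5502 with 1 probe set per gene and 3614 with the mean, and 7007 to 10106 with 1 array left out. Its 3 members called higher became 5 under quantile normalization, median centring and the filter at percentile 70, 0 with the mean and 1 without a trend, and 1 to 3 with 1 array left out (1 without Ctrl-KD OIS replicate 1 or growing replicate 2), against 2 to 4 for those called lower. KDM5B 201548_s_at is absent from the settings per gene, where KDM5B was not called in Ctrl-KD OIS over growing cells. Settings per gene test fewer features. The cause was otherwise not tested.

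Median centring moved the arrays by -0.10 to 0.07. The mean of all probe sets turned the sign of HIRA (-0.42 between the OIS states, 0.88 in Ctrl-KD OIS over growing cells), UBN1 207253_s_at (-0.091 in RB-KD OIS over growing cells), SUZ12 (-0.18 between the OIS states, -0.93 and -0.75 in RB-KD OIS and Ctrl-KD OIS over growing cells), KDM5A 202040_s_at (0.15, -0.32 and -0.47 in the same order) and KDM6B 41387_r_at (0.32 between the OIS states, -0.13 in Ctrl-KD OIS over growing cells). Quantile normalization turned CABIN1 37652_at (-0.025, between the OIS states), KDM5A 215698_at (0.10, RB-KD OIS over growing cells) and SUZ12 (-0.031, Ctrl-KD OIS over growing cells), and median centring turned KDM5A 215698_at (0.094) and KDM5B 211202_s_at (0.063) in RB-KD OIS and HIRA (0.051) in Ctrl-KD OIS over growing cells. With 1 array left out, uncalled values changed sign as follows. Between the OIS states CABIN1 37652_at ran from -0.033 to 0.072, ASF1A 203428_s_at from -0.27 to 0.034, KDM5A 226367_at from -0.32 to 1.68, KDM6B 213146_at from -0.62 to 0.90 and KDM6B 41386_i_at from -0.58 to 0.67. In RB-KD OIS over growing cells HIRA ran from -0.024 to 0.18, KDM5A 215698_at from -0.30 to 0.27, KDM5A 230226_s_at from -0.018 to 0.14, KDM5B 201549_x_at from -0.0054 to 0.16, KDM5B 211202_s_at from -0.16 to 0.066 and KDM6B 41386_i_at from -0.053 to 0.57. In Ctrl-KD OIS over growing cells HIRA ran from -0.14 to 0.06, ASF1A 203428_s_at from -0.26 to 0.037, KDM5A 215698_at from -0.49 to 0.083, KDM5A 226371_at from -0.11 to 0.21, SUZ12 from -0.035 to 0.053, KDM6B 213146_at from -0.18 to 1.35 and KDM6B 41386_i_at from -0.42 to 0.84.

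The labels link samples of different states only by the replicate number. The correlation of the deviations of same-numbered samples was 0.036, -0.014 and 0.010 between states, which cannot exclude that they came from a shared experiment. With a replicate block the called probe sets were 5578 between the OIS states, 9500 for RB-KD OIS over growing and 10550 for Ctrl-KD OIS over growing cells, with 3 members higher and 1 lower, 3 and 2, and 4 and 4 in the same order.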
